A study of Homo sapiens with 12 samples.

Results

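A549 is a human lung adenocarcinoma line, and its response to trichostatin A (TSA) was read from the 4 A549 libraries among the 12 RNA libraries of the series. A549 cells were given TSA at 1 µM to block histone deacetylases, GSK126 at 50 µM to block EZH2, a histone methyltransferase, or S2101 at 100 µM to block LSD1, the demethylase encoded by KDM1A, or were left untreated. MHCC97H, a hepatocellular carcinoma line, and HCT116, a colorectal carcinoma line, had the same 4 conditions at the same doses, with 1 poly(A) RNA library per line and condition. The series looked for missing proteins, gene products not yet seen as protein, in the transcriptome and proteome of such cells. A549 and MHCC97H were kept in DMEM and HCT116 in RPMI medium, and a comparison with HCT116 cannot be told apart from one of media. How long the cells were treated, and with what vehicle, is not given in the sources used here.

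Each of 25647 genes was placed by 1 rule: its level in the A549 TSA library was set against the range of the other 3 A549 libraries. Levels are read counts scaled to library size (CPM) after TMM scaling, which evens out differences in library composition. The margin of a gene is the log2 distance, on log2(CPM + 1), by which the TSA library lay beyond the nearest end of that range, positive above it and negative below it. A margin of 1 is a 2-fold distance, and the added 1 CPM understates the change of weakly expressed genes. With 1 library per condition no such distance has a replicate check, and "higher" and "lower" describe these libraries.

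Histone deacetylases remove acetyl groups from lysines of histone tails, and acetylated chromatin is in general more open to transcription. TSA is a hydroxamate that chelates the zinc in the active site of class I and class II enzymes, and cells treated with it are known to accumulate acetylated histones, to express tissue-specific genes out of place and to arrest in the cell cycle. A549 cells descend from alveolar epithelium and carry an inactivating mutation of KEAP1, the adaptor that marks the transcription factor NRF2 for degradation, so NRF2 target genes are known to be strongly expressed in them without treatment.

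The A549 libraries held 14805823 counts under TSA, 15537069 under GSK126, 15226730 under S2101 and 15646893 untreated, within a range of 14468304 to 19061367 counts over the series. Among 11 lung markers, 9 reached 1 CPM in each A549 library, but NKX2-1 and SFTPC, the most specific of them, stayed under 1 CPM in all 4, and the list was as well covered in MHCC97H (9 of 11). The summed lung markers stood at 5595 CPM under TSA, against 13671 CPM under GSK126, 17940 CPM under S2101 and 19316 CPM untreated (AKR1B10, AKR1C1 and NQO1 are also on the NRF2 list below), and their part in the results was not tested. The sums of 5 blood cell markers and of 3 endothelial markers stayed at or under 4.7 CPM and 3.54 CPM in every A549 library, and CD3E, a defining T-cell gene, was at 0 in all 4.

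The S2101 library of A549 stood apart in a way that bears on the increases reported here. For the 69 genes under 1 CPM in untreated A549 cells and at 20 CPM or more under TSA, the S2101 library held a median of 9.26% of the TSA level (quartiles 8.39% and 10.3%), the GSK126 library 2.97% (2.26% and 4.07%) and the untreated library 0.79%. In MHCC97H the 53 genes chosen the same way had medians of 1.37% under GSK126, 1.12% under S2101 and 0.913% untreated, and in HCT116 the 10 such genes had 2.03%, 2.22% and 2.42% in the same order of conditions. The share in A549 under S2101 was close to even across the 69 genes, so it limits how far a gene can lie above the range. The smaller GSK126 share likewise limits the margins given without the S2101 library. The cause of this even share was not tested, and the margins of the genes furthest above the range and the list counts that change are also given without the S2101 library.

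**Figure D1:**
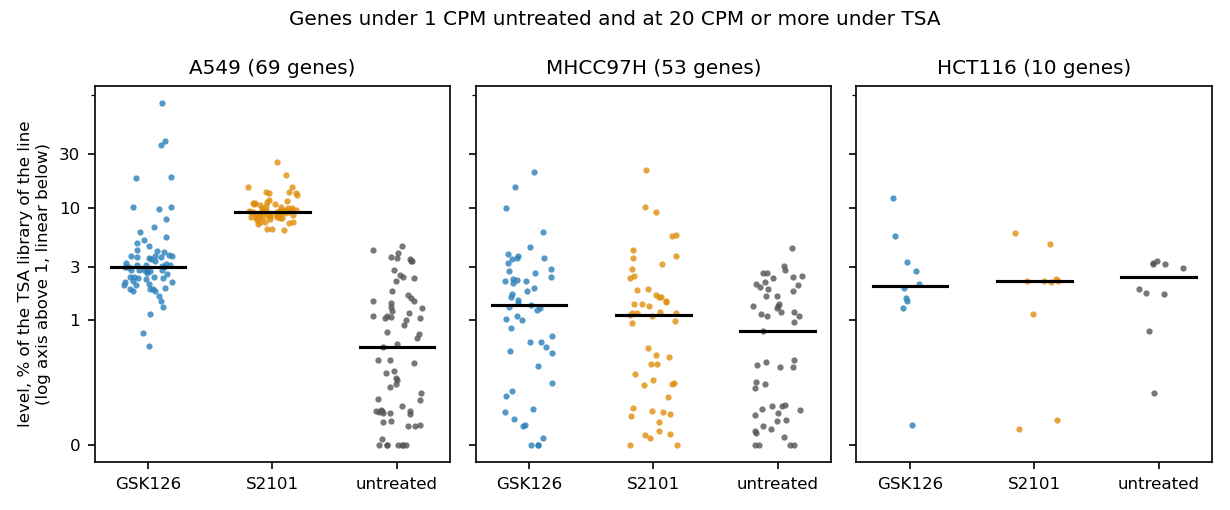
Each point is 1 gene under 1 CPM in the untreated library of a line and at 20 CPM or more under TSA, and the y axis gives its level in the GSK126, S2101 and untreated libraries as a percent of the TSA level, on an axis that is logarithmic above 1 and linear below. Black bars are medians; in A549 the S2101 points lie in a narrow band around 9.26%, above the medians of 2.97% under GSK126 and 0.79% untreated.

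Under TSA, 8539 genes (33.3% of 25647) lay above the range of the other 3 A549 libraries and 6776 (26.4%) below it. At a distance of 2-fold or more, 1644 genes (6.41%) were higher and 1545 (6.02%) lower, and at 4-fold 418 (1.63%) and 357 (1.39%). Without the S2101 library 1866 were higher and 1653 lower by 2-fold, and with scaling to library totals alone the split was 2038 higher and 1219 lower. At the edge of the 2-fold distance, PPP1R12C was just counted as higher, with 182 CPM under TSA, against 90.2 CPM under GSK126, 85.6 CPM under S2101 and 74.7 CPM untreated, and so was B3GAT3, with 67.3 CPM in the TSA library, against 33.1, 32.5 and 28.1 CPM in the GSK126, S2101 and untreated libraries. PEX16 came just short of it, with 30.5 CPM under TSA, against 12.9 CPM under GSK126, 14.8 CPM under S2101 and 11.6 CPM untreated, as did STUB1, with 80.2 CPM in the TSA library, against 27.3, 39.6 and 37.2 CPM in the GSK126, S2101 and untreated libraries. In bulk RNA, more cells with a transcript and more RNA per cell cannot be told apart.

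The higher and the lower genes came from different parts of the expression range. Of the 3416 genes with a mean of 0.1 to 1 CPM in the other 3 libraries, 15.4% were 2-fold higher under TSA and 0 lower, since so low a level leaves no room for a 2-fold decrease on this scale. Of the 4056 genes between 1 and 10 CPM, 14.8% were higher and 4.36% lower. Of the 7707 genes between 10 and 100 CPM, 5.06% were higher and 12.9% lower, and of the 2294 genes above 100 CPM, 1.83% were higher and 16.4% lower. Protein-coding genes were 2-fold higher in 7.88% of 18962 cases and lower in 7.79%, and long non-coding RNAs in 3.47% and 1.57% of 2937.

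**Figure D2:**
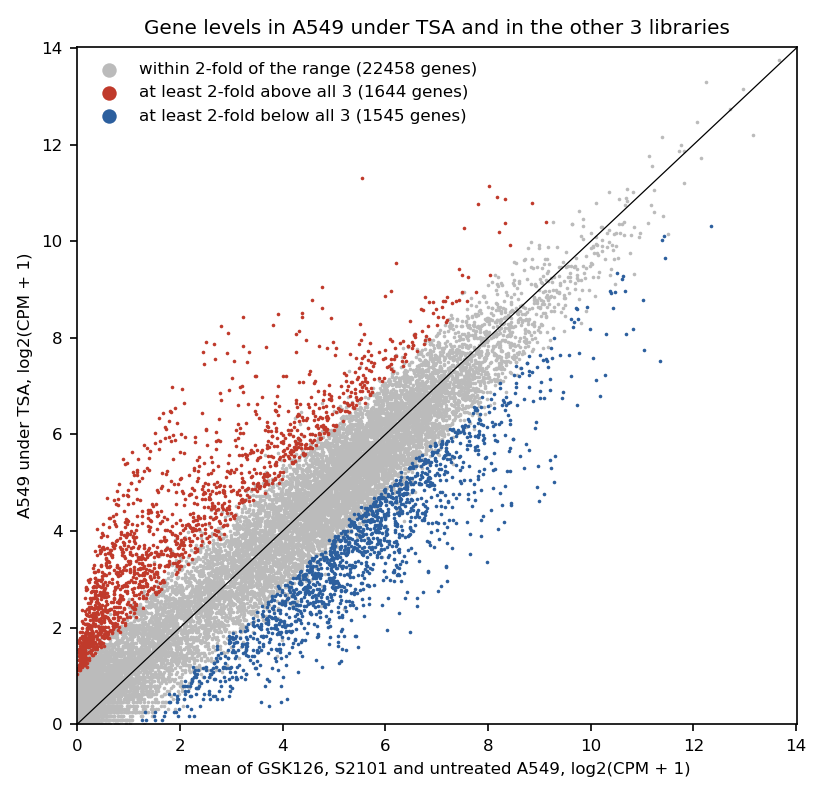
Each point is 1 gene, with the mean of the GSK126, S2101 and untreated A549 libraries on the x axis and the TSA library on the y axis, both as log2(CPM + 1). The 1644 genes at least 2-fold above all 3 other libraries (red) sit mostly at low levels, and the 1545 at least 2-fold below (blue) mostly at middle and high levels, among 22458 genes nearer to the range (grey).

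The 12 genes furthest above the range, among those with at least 20 CPM under TSA, had margins of 3.44 to 3.59, and all 12 were near-silent without treatment or expressed at a small part of the TSA level. DHRS2, a short-chain dehydrogenase known from other studies to respond to histone deacetylase inhibitors (chromosome 14, 23630115 to 23645639), reached 2530.4 CPM under TSA, against 51.1 CPM under GSK126, 210.3 CPM under S2101 and 8.18 CPM untreated, 309-fold over the untreated library. ACSBG1, an acyl-CoA synthetase for long-chain fatty acids (chromosome 15, 78167468 to 78234565), stood at 48.8 CPM in the TSA library, against 0.92, 3.15 and 0.135 CPM in the GSK126, S2101 and untreated libraries. ATP1B2, a beta subunit of the sodium pump known from glia (chromosome 17, 7646627 to 7657770), stood at 345 CPM under TSA, against 8.48 CPM under GSK126, 28.7 CPM under S2101 and 1.89 CPM untreated. In each of these 3 genes the S2101 library was the nearest to TSA and the untreated library the furthest from it. Against the untreated library alone, a setting chosen after seeing the data, the margins of DHRS2, ACSBG1 and ATP1B2 were 8.11, 5.46 and 6.90. Without the S2101 library they were 5.60, 4.70 and 5.19. Of the genes described next, DNAH3 then had 5.47, NEFH 4.93, ESPN 4.47, GBP5 5.21, SCHLAP1 4.85, RPL3L 4.73, TXNIP 5.19 and CYP4F2 4.82.

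The 250 bases upstream of the start are shown for the genes of largest margin that have a promoter entry in RefSeq (GRCh38.p14), for TXNIP, added after its motifs were seen, and for CDKN1A, whose promoter is known to respond to TSA through its GC boxes. Each is written 5′ to 3′ on the strand of the gene, with the base next to the start last. Capitals mark GGGCGG or CCGCCC (a GC box), TATAAA, and CCAAT or its complement ATTGG.
ACSBG1 (chr15:78234566-78234815, minus strand): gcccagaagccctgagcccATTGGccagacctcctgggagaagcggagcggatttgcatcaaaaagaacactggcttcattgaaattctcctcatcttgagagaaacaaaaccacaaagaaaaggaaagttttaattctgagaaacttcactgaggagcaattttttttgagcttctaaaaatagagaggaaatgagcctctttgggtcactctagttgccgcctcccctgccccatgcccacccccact
DHRS2 (chr14:23629865-23630114, plus strand): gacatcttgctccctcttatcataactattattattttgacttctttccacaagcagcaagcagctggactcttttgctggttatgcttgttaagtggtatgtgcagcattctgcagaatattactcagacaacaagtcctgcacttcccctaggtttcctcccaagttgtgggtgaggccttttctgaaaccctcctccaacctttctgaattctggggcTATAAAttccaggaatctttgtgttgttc
ATP1B2 (chr17:7646377-7646626, plus strand): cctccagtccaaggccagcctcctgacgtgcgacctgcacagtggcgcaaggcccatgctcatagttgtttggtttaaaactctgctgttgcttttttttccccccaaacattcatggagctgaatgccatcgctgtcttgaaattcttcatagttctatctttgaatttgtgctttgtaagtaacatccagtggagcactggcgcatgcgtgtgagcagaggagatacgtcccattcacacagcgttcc
TXNIP (chr1:145996580-145996829, minus strand): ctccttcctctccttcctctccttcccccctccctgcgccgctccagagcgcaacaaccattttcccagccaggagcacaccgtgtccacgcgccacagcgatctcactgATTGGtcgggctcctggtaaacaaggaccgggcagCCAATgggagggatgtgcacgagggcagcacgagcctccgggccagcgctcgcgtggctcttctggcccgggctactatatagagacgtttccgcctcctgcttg
CDKN1A (chr6:36678464-36678713, plus strand): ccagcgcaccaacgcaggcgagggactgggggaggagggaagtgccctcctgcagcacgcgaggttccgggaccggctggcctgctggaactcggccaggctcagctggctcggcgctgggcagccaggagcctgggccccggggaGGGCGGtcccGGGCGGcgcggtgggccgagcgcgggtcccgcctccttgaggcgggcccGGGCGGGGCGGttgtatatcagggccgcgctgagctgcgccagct
The DHRS2 window holds TATAAA beginning 29 bases before the start and has 0 CpG dinucleotides, whereas the CDKN1A window has 4 GGGCGG matches and 27 CpG. The TXNIP window holds ATTGG beginning 140 bases and CCAAT beginning 105 bases before the start. The ATP1B2 window has none of these letters, and ACSBG1 has ATTGG alone, beginning 231 bases before the start.

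Over the 17316 genes with such an entry, the letters CCAAT on either strand occurred upstream of 43.4% of the 1216 genes that were 2-fold higher under TSA and of 23.1% of the 1229 that were 2-fold lower, against 34.4% of all. CCAAT is the core of the box bound by NF-Y. The order was the same at like levels: between 10 and 100 CPM in the other 3 libraries it occurred upstream of 48.4% of the higher, 23.0% of the lower and 36.2% of the other genes, and between 1 and 10 CPM of 42.5%, 22.9% and 32.8%. GGGCGG on either strand stood upstream of 69.5% of the higher, 64.9% of the lower and 53.7% of all genes, and TATAAA of 9.05%, 6.59% and 9.23%. At like levels the lower genes held GGGCGG less often than the other genes did: between 10 and 100 CPM it stood upstream of 77.8% of the higher, 65.5% of the lower and 69.0% of the other genes, and between 1 and 10 CPM of 70.2%, 49.6% and 55.8%. TATAAA kept no one order, with 8.75%, 5.20% and 3.96% between 10 and 100 CPM and 6.47%, 8.40% and 6.60% between 1 and 10 CPM. Between 0.1 and 1 CPM, where 0 genes were lower, CCAAT stood upstream of 40.8% of the higher and 31.0% of the other genes. At that level GGGCGG stood upstream of 62.8% and 38.2%, and TATAAA of 10.1% and 12.4%. GGGCGG can overlap itself, as it does in CDKN1A, and no motif was tested.

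Other genes of the same 12 belong to nerve cells, cilia, muscle and immunity. NEFH, the heavy neurofilament subunit (chromosome 22, 29480218 to 29491390), stood at 79.5 CPM under TSA, against 1.64 CPM under GSK126, 5.9 CPM under S2101 and 0.473 CPM untreated. DNAH3, a dynein heavy chain of cilia and flagella (chromosome 16, 20933111 to 21159459), stood at 239 CPM in the TSA library, against 4.4, 19.5 and 0.676 CPM in the GSK126, S2101 and untreated libraries. ESPN, which bundles actin in microvilli and stereocilia (chromosome 1, 6424776 to 6461370), had 41.6 CPM under TSA, against 0.92 CPM under GSK126, 2.69 CPM under S2101 and 0.0676 CPM untreated. NEFH was the exception in the other lines, with 0.0664 CPM under TSA and 0.0687 CPM untreated in MHCC97H and 0.48 CPM under TSA and 0.0592 CPM untreated in HCT116, whereas DNAH3 and ESPN stood higher under TSA than untreated in both. ESPN was already at 35.7 CPM in untreated HCT116.

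GBP5, an interferon-inducible GTPase (chromosome 1, 89256189 to 89272860), stood at 272 CPM in the TSA library, against 6.38, 23.5 and 1.49 CPM in the GSK126, S2101 and untreated libraries. SCHLAP1, a long non-coding RNA known from prostate cancer (chromosome 2, 180692104 to 180916939), had 204 CPM under TSA, against 6.11 CPM under GSK126, 17.5 CPM under S2101 and 2.23 CPM untreated. RPL3L, the muscle form of a large-subunit ribosomal protein (chromosome 16, 1943974 to 1954689), stood at 122 CPM in the TSA library, against 3.62, 10.2 and 0.338 CPM in the GSK126, S2101 and untreated libraries. All 3 were above the range of their own line in MHCC97H and HCT116 as well.

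TXNIP, an alpha-arrestin that binds thioredoxin and limits glucose uptake (chromosome 1, 145992435 to 145996579), reached 302 CPM under TSA, against 7.3 CPM under GSK126, 27.0 CPM under S2101 and 0.473 CPM untreated, 638-fold over the 7 reads of the untreated library. It had 169 CPM under TSA and 5.29 CPM untreated in MHCC97H and 0.12 CPM under TSA and 0.0592 CPM untreated in HCT116, so HCT116 held almost none under either condition. CYP4F2, a cytochrome P450 that hydroxylates fatty acids and vitamin K (chromosome 19, 15878023 to 15898074), stood at 88.7 CPM in the TSA library, against 2.17, 7.28 and 0.608 CPM in the GSK126, S2101 and untreated libraries. It was above the range in the other lines as well, with margins of 5.85 in MHCC97H and 2.71 in HCT116.

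The 12 genes furthest below the range had margins of -4.46 to -3.74, and the values of each in the other 3 libraries lay far closer to each other than to TSA. SLC22A3, an organic cation transporter (chromosome 6, 160348378 to 160452577), stood at 2.75 CPM under TSA, against 92.8 CPM under GSK126, 92.3 CPM under S2101 and 81.7 CPM untreated. CXCL5, a chemokine that attracts neutrophils (chromosome 4, 73995642 to 73998677), had 9.23 CPM in the TSA library, against 212, 302 and 249 CPM in the GSK126, S2101 and untreated libraries. NRP1, a coreceptor for semaphorins and VEGF (chromosome 10, 33177493 to 33334667), stood at 23.6 CPM under TSA, against 526 CPM under GSK126, 516 CPM under S2101 and 478 CPM untreated. The TSA value lay at least 15-fold under untreated in each of the 12, and MHCC97H, except for PAPPA, had the same genes below its own range.

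ABCC2, an export pump for drug conjugates (chromosome 10, 99782640 to 99852594), stood at 31.3 CPM in the TSA library, against 632, 634 and 607 CPM in the GSK126, S2101 and untreated libraries. HMGA2, a chromatin protein of embryonic and tumour cells (chromosome 12, 65824460 to 65966291), had 4.46 CPM under TSA, against 112 CPM under GSK126, 82.1 CPM under S2101 and 101 CPM untreated. PLAU, the urokinase plasminogen activator (chromosome 10, 73908832 to 73917494), stood at 5.74 CPM in the TSA library, against 166, 101 and 132 CPM in the GSK126, S2101 and untreated libraries. Of the genes furthest below the range in A549, only HMGA2 and KCTD15 lay below the range of HCT116, with margins of -0.73 and -0.79. In HCT116 ABCC2 lay above the range, with 174 CPM under TSA and 95.8 CPM untreated. PLAU lay inside it, with 39.0 CPM under TSA and 27.2 CPM untreated.

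KYNU, kynureninase of tryptophan breakdown (chromosome 2, 142877664 to 143055833), stood at 17.2 CPM under TSA, against 355 CPM under GSK126, 322 CPM under S2101 and 272 CPM untreated. LIF, a cytokine of the interleukin 6 family (chromosome 22, 30240453 to 30246759), had 6.23 CPM in the TSA library, against 231, 108 and 95.8 CPM in the GSK126, S2101 and untreated libraries. PAPPA, a protease that cleaves binding proteins of insulin-like growth factor (chromosome 9, 116153791 to 116402321), stood at 10.4 CPM under TSA, against 239 CPM under GSK126, 209 CPM under S2101 and 159 CPM untreated. LIF and PAPPA were highest under GSK126 and lowest under TSA among the A549 libraries. KCTD15, a BTB-domain protein (chromosome 19, 33794040 to 33815761), had 5.68 CPM in the TSA library, against 99.1, 96.0 and 124 CPM in the GSK126, S2101 and untreated libraries. AMIGO2, a cell adhesion molecule (chromosome 12, 47075707 to 47079959), stood at 26.3 CPM under TSA, against 629 CPM under GSK126, 535 CPM under S2101 and 483 CPM untreated, and PCED1B (chromosome 12, 47079621 to 47236660) at 2.02 CPM in the TSA library, against 40.7, 41.4 and 47.5 CPM in the GSK126, S2101 and untreated libraries. AMIGO2 and PCED1B overlap in the annotation from 47079621 to 47079959, and reads of that stretch cannot be assigned to either gene without the strand.

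**Figure D3:**
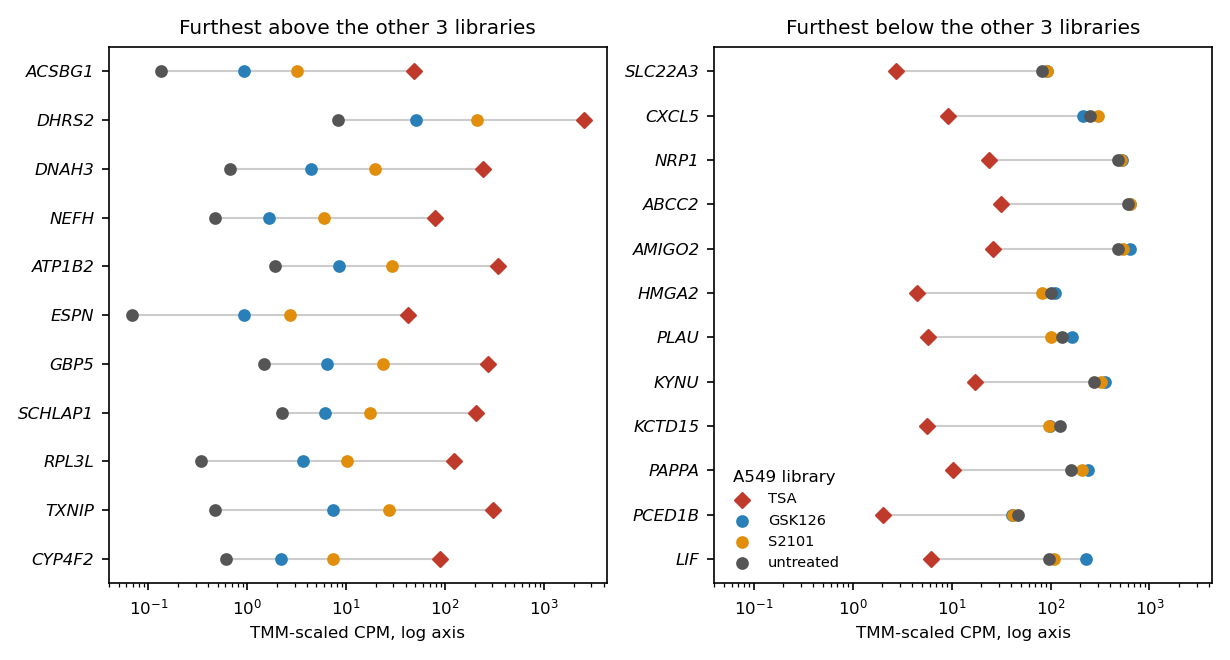
Points give the TMM-scaled CPM (log axis) of 11 of the 12 genes furthest above (left panel) and the 12 furthest below (right panel) the range of the other 3 A549 libraries, with 1 point per library and a grey line over the span of the 4. On the left the S2101 library lies nearest to TSA and untreated furthest in all 11 genes; on the right the 3 other libraries lie close together, 15-fold or more above TSA.

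NRF2 target genes were the list with the most members lower under TSA in A549: 19 of 32 were 2-fold below the range and 0 above, with a median log2 difference of -1.49 from the mean of the other 3 libraries, against 0 for all genes. Of all genes in A549, 6.02% were 2-fold below the range and 6.41% above. These are the shares to set beside every A549 list count below, but they vary with level. Of genes at 10 to 100 CPM in the other 3 libraries, 12.9% were lower and 5.06% higher. Above 100 CPM the shares were 16.4% and 1.83%, and at 1 to 10 CPM 4.36% and 14.8%. The list counts were not matched for level. The summed level of the NRF2 list was 17491 CPM under TSA, against 31448 CPM under GSK126, 33169 CPM under S2101 and 29566 CPM untreated. AKR1B10, an aldo-keto reductase, stood at 184 CPM under TSA, against 2458 CPM under GSK126, 2617 CPM under S2101 and 2733 CPM untreated. SLC7A11, which imports cystine for glutathione synthesis, had 46.0 CPM in the TSA library, against 756, 581 and 582 CPM in the GSK126, S2101 and untreated libraries. ABCC3, an export pump like ABCC2, stood at 29.1 CPM under TSA, against 609 CPM under GSK126, 597 CPM under S2101 and 327 CPM untreated. In all 3 genes the other libraries lay closer to each other than to TSA.

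Within the list the lower members covered several roles. In glutathione synthesis and use, GCLM, a subunit of the first enzyme of glutathione synthesis, stood at 61.5 CPM in the TSA library, against 213, 213 and 214 CPM in the GSK126, S2101 and untreated libraries. GPX2, a glutathione peroxidase, had 10.9 CPM under TSA, against 71.5 CPM under GSK126, 71.0 CPM under S2101 and 70.0 CPM untreated. In the pentose phosphate pathway, PGD, a dehydrogenase, stood at 393 CPM in the TSA library, against 1598, 1428 and 1161 CPM in the GSK126, S2101 and untreated libraries, and TKT, transketolase, at 500.0 CPM under TSA, against 1475 CPM under GSK126, 1184 CPM under S2101 and 1346 CPM untreated. NQO1, the quinone reductase often used as a readout of NRF2, lay just past the 2-fold distance, with 650.0 CPM in the TSA library, against 1337, 1519 and 1550.4 CPM in the GSK126, S2101 and untreated libraries. AKR1C1, AKR1C2 and AKR1C3 had margins of -2.05, -2.43 and -2.90, but these copies are near-identical and may share reads.

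MHCC97H had 17 of 32 NRF2 targets 2-fold below its own range (6.78% of all genes were) and 1 above, with a median of -1.16. HCT116 had 5 below (1.17% of all genes) and 1 above (3.28%), with a median of -0.08. High levels without treatment were not particular to A549. Untreated MHCC97H had 4074 CPM of AKR1B10, 1381 CPM of AKR1C1 and 1157 CPM of NQO1, against 2733, 791 and 1550 CPM in untreated A549. The sequence TGACNNNGC, the core of the element bound by NRF2, searched on both strands, stood upstream of 30% of the 20 targets with a promoter entry, against 11.7% of all genes. The list was chosen as NRF2 targets, so this share does not bear on TSA. Among all genes 2-fold lower under TSA in A549 the share was 11.6%, and among those 2-fold higher 14.1%. The regulators themselves were looked up after these values were seen: KEAP1 stood at 19.6 CPM under TSA, against 62.5 CPM under GSK126, 67.5 CPM under S2101 and 85.8 CPM untreated, a margin of -1.63. NFE2L2, which encodes NRF2, had 53.3 CPM in the TSA library, against 114, 82.6 and 93.8 CPM in the GSK126, S2101 and untreated libraries, a margin of -0.62.

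Export pumps of the ABC family lay on both sides of the range in A549. Among 23 ABC transporters, 5 were 2-fold below and 6 above. Besides ABCC2 and ABCC3, ABCC1, ABCC4 and ABCG2 were lower, with ABCG2, the breast cancer resistance protein, at 18.1 CPM under TSA, against 109.8 CPM under GSK126, 121 CPM under S2101 and 92.9 CPM untreated. On the higher side ABCB1, the P-glycoprotein pump for drugs, stood at 14.4 CPM in the TSA library, against 0.854, 1.05 and 0.541 CPM in the GSK126, S2101 and untreated libraries, and ABCA7, a lipid transporter, at 158 CPM under TSA, against 29.2 CPM under GSK126, 29.7 CPM under S2101 and 12.4 CPM untreated. The median of the family was 0.30.

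A list of 17 genes held ERBB receptors, their ligands and related genes such as LRIG3. Of the 17, 6 were 2-fold below the range and 0 above (1 without the S2101 library). The median was -0.66 (-0.55 in MHCC97H and 0.13 in HCT116). Among the ligands, EREG, epiregulin, stood at 17.7 CPM in the TSA library, against 279, 218 and 204 CPM in the GSK126, S2101 and untreated libraries, and NRG1, neuregulin, at 13.3 CPM under TSA, against 172 CPM under GSK126, 86.4 CPM under S2101 and 151 CPM untreated. Among the receptors, EGFR had 37.0 CPM in the TSA library, against 222, 204 and 252 CPM in the GSK126, S2101 and untreated libraries. LRIG3, of a family that includes negative regulators of ERBB receptors, stood at 4.28 CPM under TSA, against 17.9 CPM under GSK126, 15.8 CPM under S2101 and 18.7 CPM untreated. In HCT116 EREG was high under both conditions, with 735 CPM under TSA and 711 CPM untreated.

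Genes that respond to ERK signalling were mixed, with 5 of 32 lower and 3 higher by 2-fold. FOSL1, an AP-1 subunit, stood at 6.78 CPM in the TSA library, against 62.4, 50.2 and 112 CPM in the GSK126, S2101 and untreated libraries, and DUSP4, a phosphatase that turns off ERK, at 45.7 CPM under TSA, against 589 CPM under GSK126, 450.3 CPM under S2101 and 228 CPM untreated. PHLDA1, a pleckstrin-homology protein induced by growth factors, had 32.4 CPM in the TSA library, against 317, 190.2 and 129 CPM in the GSK126, S2101 and untreated libraries. EGR1, an immediate early transcription factor, was instead higher, with 56.5 CPM under TSA, against 10.4 CPM under GSK126, 5.38 CPM under S2101 and 0.608 CPM untreated.

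Of 25 chemokines and cytokines, 5 were lower and 1 higher by 2-fold, or 7 and 1 without the S2101 library. CSF1, the macrophage growth factor, stood at 4.58 CPM in the TSA library, against 57.4, 44.1 and 50.7 CPM in the GSK126, S2101 and untreated libraries, beside CXCL5 and LIF above. CSF3, the granulocyte growth factor, was the 1 higher member, with 27.6 CPM under TSA, against 0.657 CPM under GSK126, 1.97 CPM under S2101 and 0 CPM untreated. Its untreated value of 0 CPM is 0 reads.

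Neurosecretory and synaptic genes were the list with the most members higher by count, whereas the histone list below had the larger share and median. Of 42, 20 were 2-fold above the range and 1 below, with a median log2 difference of 1.15 (0.82 in MHCC97H and 0.42 in HCT116), and 22 were above without the S2101 library. Against the untreated library alone the median was 1.73. Of all genes at 0.1 to 1 CPM and at 1 to 10 CPM in the other 3 libraries, 15.4% and 14.8% were 2-fold higher. VGF, a neuropeptide precursor, and CHGA, the granule protein chromogranin A, had margins of 3.05 each.

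SYT11, a synaptotagmin of vesicle traffic, stood at 225 CPM in the TSA library, against 7.62, 23.9 and 2.84 CPM in the GSK126, S2101 and untreated libraries. NEFM, the medium neurofilament subunit, had 60.6 CPM under TSA, against 1.77 CPM under GSK126, 5.57 CPM under S2101 and 1.22 CPM untreated, beside NEFH above. ELAVL3, a neuronal RNA-binding protein, stood at 36.1 CPM in the TSA library, against 1.31, 3.48 and 0.0676 CPM in the GSK126, S2101 and untreated libraries. SYT11 was higher in the other lines too, with 255 CPM under TSA and 0.619 CPM untreated in MHCC97H and 38.9 CPM under TSA and 0.355 CPM untreated in HCT116. NEFM had 0 reads under TSA and untreated in both other lines, and ELAVL3 had 0.0664 CPM under TSA and 0.137 CPM untreated in MHCC97H and 0.06 CPM under TSA and 0.296 CPM untreated in HCT116. CPLX2, a complexin of vesicle release, was the 1 lower member, with 107 CPM under TSA, against 478 CPM under GSK126, 787 CPM under S2101 and 890.2 CPM untreated.

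Of 30 neuronal adhesion and guidance genes, 12 were higher and 3 lower by 2-fold, with a median of 0.37. NRXN2, a presynaptic neurexin, stood at 86.9 CPM in the TSA library, against 1.84, 8 and 0.744 CPM in the GSK126, S2101 and untreated libraries, and NCAM1, the neural cell adhesion molecule, at 34.8 CPM under TSA, against 0.657 CPM under GSK126, 3.21 CPM under S2101 and 0.406 CPM untreated. UNC5B, a netrin receptor, had 35.2 CPM in the TSA library, against 3.35, 3.15 and 1.01 CPM in the GSK126, S2101 and untreated libraries. NTN4, a netrin of basement membranes, went the other way, with 8.49 CPM under TSA, against 190.4 CPM under GSK126, 128 CPM under S2101 and 121 CPM untreated.

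Of 40 voltage-gated ion channel genes, 12 were higher and 1 lower, and the median was 0.56 (0.90 in MHCC97H and 0.33 in HCT116). KCNH2, the potassium channel of cardiac repolarisation, stood at 15.5 CPM under TSA, against 2.1 CPM under GSK126, 2.43 CPM under S2101 and 1.35 CPM untreated. KCNC1, a potassium channel subunit of fast-firing neurons, had 7.45 CPM in the TSA library, against 0.46, 0.787 and 0.135 CPM in the GSK126, S2101 and untreated libraries. CACNA2D1, an auxiliary calcium channel subunit, was the lower one, with 5.44 CPM under TSA, against 44.6 CPM under GSK126, 37.8 CPM under S2101 and 40.1 CPM untreated.

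Motile cilia belong to the multiciliated cells of the airway, and 8 of 20 motile cilium genes were 2-fold higher and 1 lower (8 and 2 without the S2101 library), with a median of 0.88 (0.83 in MHCC97H and 0.24 in HCT116). TPPP3, a tubulin-binding protein, stood at 20.1 CPM in the TSA library, against 1.45, 2.82 and 1.69 CPM in the GSK126, S2101 and untreated libraries. DNAI1, an intermediate chain of outer dynein arms, had 6.29 CPM under TSA, against 0.263 CPM under GSK126, 0.918 CPM under S2101 and 0 CPM untreated. RSPH1 and RSPH4A, of the radial spokes, had 8.19 CPM each under TSA, with margins of 1.91 each. FOXJ1, the transcription factor of motile ciliogenesis, had 3.05 CPM in the TSA library, against 0.0657, 0.197 and 0.203 CPM in the GSK126, S2101 and untreated libraries. MCIDAS, which starts the same programme, was the 1 lower member at 0.611 CPM under TSA, against 2.89 CPM under GSK126, 2.89 CPM under S2101 and 4.12 CPM untreated.

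Muscle sarcomere genes were 2-fold higher in 4 of 38 cases and germ-cell genes in 2 of 37, with 1 lower in each list. Of all genes, 6.41% were 2-fold higher and 6.02% lower. Of all genes at 0.1 to 1 CPM and at 1 to 10 CPM in the other 3 libraries, 15.4% and 14.8% were higher. The members named here are those of large margin. Both medians were 0.09. The germ-cell cyclin CCNA1 stood at 22.7 CPM in the TSA library, against 0.789, 1.71 and 0 CPM in the GSK126, S2101 and untreated libraries, and TEX14, needed for germ-cell bridges, at 25.7 CPM under TSA, against 0.526 CPM under GSK126, 2.43 CPM under S2101 and 0.203 CPM untreated. Without the S2101 library 4 germ-cell genes were above the range. DES, desmin, had 6.48 CPM in the TSA library, against 0.394, 0.59 and 0 CPM in the GSK126, S2101 and untreated libraries.

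Linker and replacement histones package DNA alongside the core histones of replication. A list of 17 genes, which also holds several clustered core histone genes of the H2A and H2B families, had 10 members 2-fold above the range and 1 below, with a median of 1.26 (0.75 in MHCC97H and 1.14 in HCT116). H1F0, the linker histone of resting cells, stood at 1926 CPM under TSA, against 298 CPM under GSK126, 385 CPM under S2101 and 209 CPM untreated. HIST1H1C, linker histone H1.2, had 269 CPM in the TSA library, against 18.5, 34.6 and 8.92 CPM in the GSK126, S2101 and untreated libraries. HIST2H2BE, an H2B gene, stood at 126 CPM under TSA, against 8.81 CPM under GSK126, 16.7 CPM under S2101 and 3.18 CPM untreated. HIST1H2BK, another H2B gene, had 241 CPM in the TSA library, against 27.2, 42.8 and 24.8 CPM in the GSK126, S2101 and untreated libraries. H2AFY2, which encodes a macroH2A, was the 1 lower member, at 2.57 CPM under TSA, against 29.97 CPM under GSK126, 29.1 CPM under S2101 and 39.9 CPM untreated. Copies of histone genes can share reads, and the libraries hold polyadenylated RNA, so these values count polyadenylated histone transcripts.

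Of the histone deacetylase genes themselves, 1 of 11 was higher and 1 lower by 2-fold, against 6.41% and 6.02% of all genes. HDAC3, the deacetylase of the NCoR corepressor complex, stood at 126 CPM in the TSA library, against 41.7, 44.8 and 51.5 CPM in the GSK126, S2101 and untreated libraries. HDAC7, a class IIa enzyme, had 6.9 CPM under TSA, against 64.0 CPM under GSK126, 51.2 CPM under S2101 and 70.2 CPM untreated. Both had the same direction in MHCC97H, with margins of 1.74 for HDAC3 and -3.19 for HDAC7. In HCT116 both were short of 2-fold, with margins of 0.14 for HDAC3 and -0.53 for HDAC7. HDAC1 stood at 130.4 CPM in the TSA library, against 93.9, 107 and 107 CPM in the GSK126, S2101 and untreated libraries, and HDAC2 at 88.0 CPM under TSA, against 88.9 CPM under GSK126, 110.1 CPM under S2101 and 131 CPM untreated.

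The remaining deacetylase genes were within 2-fold of the range. HDAC5 was high under TSA and GSK126 alike, with 50.2 CPM in the TSA library, against 59.5, 15.1 and 8.38 CPM in the GSK126, S2101 and untreated libraries. HDAC4 had 19.7 CPM under TSA, against 35.6 CPM under GSK126, 39.9 CPM under S2101 and 41.4 CPM untreated. HDAC6 and HDAC10 lay inside the range, HDAC9 stayed under 1 CPM, and HDAC8 and HDAC11 had margins of -0.20 and 0.22. EZH2 stood at 49.9 CPM in the TSA library, against 23.6, 46.0 and 61.4 CPM in the GSK126, S2101 and untreated libraries, and KDM1A at 109 CPM under TSA, against 81.2 CPM under GSK126, 94.0 CPM under S2101 and 135 CPM untreated, both inside the range.

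Metallothioneins, small proteins that bind zinc and copper, were 2-fold higher in 5 of 12 cases and lower in 0, with a median of 1.05 (0.77 in MHCC97H and 0.50 in HCT116). MT1X stood at 249 CPM in the TSA library, against 15.8, 36.6 and 15.7 CPM in the GSK126, S2101 and untreated libraries, and MT2A at 460.1 CPM under TSA, against 94.8 CPM under GSK126, 147 CPM under S2101 and 90.7 CPM untreated. MT1G and MT3 reached 4.28 and 5.01 CPM under TSA, against 0.656 CPM or less in each of the other 3 A549 libraries. The copies of this family may share reads.

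Antigen presentation genes were 2-fold higher in 10 of 30 cases and lower in 1 (11 and 2 without the S2101 library), with a median of 0.87 (0.88 in MHCC97H and 0.32 in HCT116). The list also holds stress ligands of the receptor NKG2D. The largest margin was that of such a ligand, ULBP2. It stood at 48.5 CPM under TSA, against 3.02 CPM under GSK126, 6.03 CPM under S2101 and 1.28 CPM untreated. MICB, another NKG2D ligand, had 45.0 CPM in the TSA library, against 10.4, 13.6 and 8.85 CPM in the GSK126, S2101 and untreated libraries. HLA-B, a class I heavy chain, stood at 63.3 CPM under TSA, against 20.3 CPM under GSK126, 18.4 CPM under S2101 and 11.6 CPM untreated. PSMB8, a subunit of the immunoproteasome, was the lower one, with 3.85 CPM in the TSA library, against 12.4, 12.1 and 9.33 CPM in the GSK126, S2101 and untreated libraries. HLA genes and ULBP genes have close copies, so their values are uncertain.

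Interferon-stimulated genes split, with 7 of 31 higher and 4 lower by 2-fold and a median of 0. ISG15, a ubiquitin-like modifier, stood at 33.4 CPM under TSA, against 2.83 CPM under GSK126, 4.66 CPM under S2101 and 2.1 CPM untreated, and IRF7, a transcription factor of the interferon response, at 53.8 CPM in the TSA library, against 4.86, 7.61 and 2.77 CPM in the GSK126, S2101 and untreated libraries. GBP2, an interferon-inducible GTPase like GBP5, had 62.2 CPM under TSA, against 2.63 CPM under GSK126, 6.89 CPM under S2101 and 0.676 CPM untreated, and OASL, a relative of the OAS enzymes, 18.8 CPM in the TSA library, against 1.05, 2.03 and 0.811 CPM in the GSK126, S2101 and untreated libraries. OAS1, a sensor of double-stranded RNA, lay below the range, with 1.34 CPM under TSA, against 19.2 CPM under GSK126, 18.6 CPM under S2101 and 11.1 CPM untreated. ISG15 and OAS1, both classical targets of the same response, thus lay on opposite sides of the range.

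**Figure D4:**
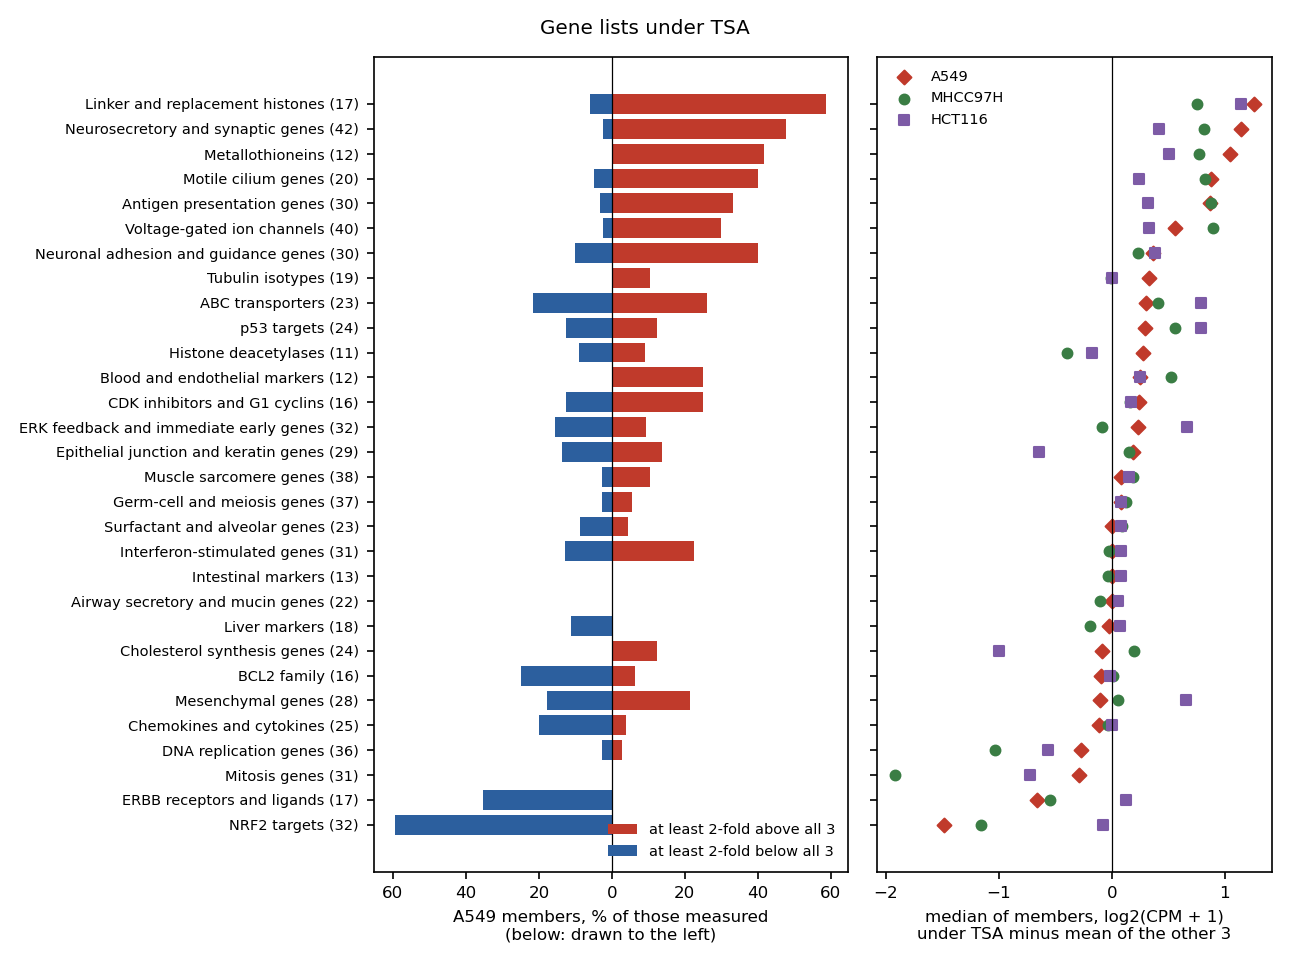
Left, the share of measured members (number in brackets) of each gene list that was at least 2-fold above (red, to the right) or below (blue, to the left) all 3 other A549 libraries under TSA, against 6.41% and 6.02% of all genes. Right, the median over members of log2(CPM + 1) under TSA minus the mean of the other 3 libraries of the same line; NRF2 targets are lowest in A549 at -1.49, and mitosis genes lowest in MHCC97H at -1.92.

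Cell division genes differed between A549 and MHCC97H in their counts. Of 31 mitosis genes, 0 were 2-fold outside the range in A549 in either direction and 5 lay below it at any distance, with a median of -0.29. In MHCC97H 26 were 2-fold lower, with a median of -1.92, and in HCT116 0, with -0.72. Their summed level in A549 was 2802 CPM under TSA, against 1760 CPM under GSK126, 3188 CPM under S2101 and 6421 CPM untreated, so the GSK126 library was the lowest of the 4. Against the untreated library alone the median was -1.25 in A549 and -2.21 in MHCC97H. The difference between lines was not tested for the list. Of its 31 members, 0 passed the test of single genes given below. That test called only 0.107% of all genes for A549, so this count cannot tell whether the list differed between lines.

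FOXM1, the transcription factor of late cell cycle genes, stood at 47.3 CPM in the TSA library, against 66.8, 98.8 and 181 CPM in the GSK126, S2101 and untreated libraries. AURKA, a mitotic kinase, had 38.1 CPM under TSA, against 49.2 CPM under GSK126, 82.9 CPM under S2101 and 168 CPM untreated. BUB3, of the spindle checkpoint, stood at 92.2 CPM in the TSA library, against 133, 157 and 220.2 CPM in the GSK126, S2101 and untreated libraries, and CENPA, the centromeric histone, at 14.5 CPM under TSA, against 17.1 CPM under GSK126, 24.7 CPM under S2101 and 46.3 CPM untreated. These 4 and CCNA2 were the 5 below the range, and in each of the 4 the TSA library was lowest, then GSK126, S2101 and untreated.

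Of 36 DNA replication genes, 1 was 2-fold lower and 1 higher in A549, with a median of -0.27, or -0.996 against the untreated library alone, and MHCC97H had 13 lower than its own range by 2-fold. TYMS, thymidylate synthase, stood at 12.3 CPM under TSA, against 36.5 CPM under GSK126, 77.5 CPM under S2101 and 141 CPM untreated. TK1, thymidine kinase, was the higher one, with 385 CPM in the TSA library, against 54.6, 126 and 158 CPM in the GSK126, S2101 and untreated libraries. GINS3, of the replicative helicase, had 8.19 CPM under TSA, against 13.1 CPM under GSK126, 28.0 CPM under S2101 and 29.6 CPM untreated.

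Of 16 CDK inhibitors and G1 cyclins with their kinases, 4 were higher and 2 lower. CDKN1A, which encodes the inhibitor p21, stood at 249.8 CPM in the TSA library, against 96.4, 72.8 and 43.3 CPM in the GSK126, S2101 and untreated libraries, and CDKN1C, which encodes p57, at 11.7 CPM under TSA, against 1.77 CPM under GSK126, 1.9 CPM under S2101 and 0.203 CPM untreated. CDKN2D, an inhibitor of CDK4 and CDK6, had 18.7 CPM in the TSA library, against 4.01, 3.87 and 3.38 CPM in the GSK126, S2101 and untreated libraries. CCND1, cyclin D1, was lower, with 38.7 CPM under TSA, against 307 CPM under GSK126, 440.2 CPM under S2101 and 535 CPM untreated, and CCND2, cyclin D2, higher, with 11.5 CPM in the TSA library, against 0.197, 1.31 and 0 CPM in the GSK126, S2101 and untreated libraries. In HCT116 CCND1 lay inside its range, with 786 CPM under TSA and 674 CPM untreated.

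Of 24 p53 targets, 3 were higher and 3 lower, and the median was 0.30 (0.56 in MHCC97H and 0.79 in HCT116). FDXR, a mitochondrial reductase, stood at 106 CPM under TSA, against 26.5 CPM under GSK126, 33.2 CPM under S2101 and 29.3 CPM untreated. PHLDA3, an inhibitor of AKT, had 11.7 CPM in the TSA library, against 60.8, 71.4 and 60.8 CPM in the GSK126, S2101 and untreated libraries, and TP53I3, an oxidoreductase, 32.3 CPM under TSA, against 92.4 CPM under GSK126, 115 CPM under S2101 and 219.6 CPM untreated. FAS, a death receptor, stood at 1.83 CPM in the TSA library, against 6.97, 7.08 and 7.17 CPM in the GSK126, S2101 and untreated libraries.

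In the BCL2 family of 16, 4 were lower and 1 higher. BCL2L1, which encodes the survival protein BCL-XL, stood at 55.8 CPM under TSA, against 145 CPM under GSK126, 187 CPM under S2101 and 199 CPM untreated. BID, a BH3-only death protein, had 4.95 CPM in the TSA library, against 27.7, 30.3 and 33.2 CPM in the GSK126, S2101 and untreated libraries, and BCL2A1, a survival protein, 0.428 CPM under TSA, against 5.85 CPM under GSK126, 4 CPM under S2101 and 7.37 CPM untreated. BIK, another BH3-only protein, was higher, with 7.39 CPM in the TSA library, against 1.18, 0.459 and 0.608 CPM in the GSK126, S2101 and untreated libraries. The lower members thus held survival and death proteins alike.

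Epithelial and mesenchymal genes lay on both sides of the range. Of 29 epithelial junction and keratin genes, 4 were higher (6 without the S2101 library) and 4 lower, with KRT7, a simple-epithelium keratin, at 216 CPM under TSA, against 1400.5 CPM under GSK126, 2317 CPM under S2101 and 2841 CPM untreated. CLDN2, a claudin of leaky junctions, stood at 2.14 CPM in the TSA library, against 16.4, 20.2 and 19.3 CPM in the GSK126, S2101 and untreated libraries, and PKP3, a desmosome protein, at 5.68 CPM under TSA, against 32.5 CPM under GSK126, 41.9 CPM under S2101 and 50.8 CPM untreated. GRHL1, an epithelial transcription factor, was higher, with 22.5 CPM in the TSA library, against 1.18, 3.34 and 1.55 CPM in the GSK126, S2101 and untreated libraries. Of 28 mesenchymal genes, 6 were higher and 5 lower.

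CTGF, a matricellular protein and YAP target, stood at 393 CPM under TSA, against 12.4 CPM under GSK126, 43.1 CPM under S2101 and 32.9 CPM untreated, and COL1A1, collagen I, at 88.7 CPM in the TSA library, against 7.43, 11.5 and 11.5 CPM in the GSK126, S2101 and untreated libraries. SNAI1, a repressor of E-cadherin, had 33.8 CPM under TSA, against 6.97 CPM under GSK126, 6.69 CPM under S2101 and 5.75 CPM untreated. TGFBI, a matrix protein induced by TGF-beta, stood at 148 CPM in the TSA library, against 676, 670.4 and 1038 CPM in the GSK126, S2101 and untreated libraries, and ZEB2, a repressor of epithelial genes, at 2.99 CPM under TSA, against 32.9 CPM under GSK126, 15.4 CPM under S2101 and 16.2 CPM untreated. SNAI1 and ZEB2, both repressors of epithelial genes, thus lay on opposite sides of the range.

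Of 23 surfactant and alveolar genes, 11 were under 1 CPM in all 4 A549 libraries, 1 was 2-fold higher and 2 lower. The summed level of the 23 was 367 CPM under TSA, against 687 CPM under GSK126, 731 CPM under S2101 and 975 CPM untreated. LAMP3, a lamellar body membrane protein, stood at 10.4 CPM under TSA, against 0.92 CPM under GSK126, 1.25 CPM under S2101 and 0.406 CPM untreated. FOXA1 and FOXA2 are pioneer factors of lung and liver. FOXA1 stood at 2.32 CPM in the TSA library, against 22.9, 22.4 and 16.9 CPM in the GSK126, S2101 and untreated libraries, and FOXA2 at 6.23 CPM under TSA, against 27.3 CPM under GSK126, 23.3 CPM under S2101 and 31.3 CPM untreated. Of 22 airway secretory and mucin genes, 0 were 2-fold outside the range. AGR2, needed for mucin folding, stood at 18.5 CPM in the TSA library, against 69.9, 54.6 and 24.8 CPM in the GSK126, S2101 and untreated libraries, and SPDEF, a transcription factor of secretory cells, at 0.244 CPM under TSA, against 4.34 CPM under GSK126, 1.25 CPM under S2101 and 1.22 CPM untreated. MUC4, a membrane mucin, had 2.69 CPM in the TSA library, against 1.12, 0.787 and 0.203 CPM in the GSK126, S2101 and untreated libraries, and PIGR, which carries antibodies across epithelium, 3.79 CPM under TSA, against 2.76 CPM under GSK126, 2.75 CPM under S2101 and 2.1 CPM untreated.

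Markers of other organs were also counted in A549. Of 18 liver markers, 0 were 2-fold higher and 2 lower, with a summed level of 23.3 CPM under TSA, against 50.7 CPM under GSK126, 41.8 CPM under S2101 and 54.2 CPM untreated. HNF4A, a liver and gut transcription factor, stood at 8.43 CPM in the TSA library, against 28.3, 25.6 and 30.4 CPM in the GSK126, S2101 and untreated libraries. Of 13 intestinal markers, 0 passed in either direction. The longer list of 12 blood and endothelial markers summed to 59.7 CPM under TSA, against 94.6 CPM under GSK126, 91.7 CPM under S2101 and 59.3 CPM untreated. Of the 12, 3 were higher (4 without the S2101 library), and KDR, a VEGF receptor, led them with 6.17 CPM under TSA, against 0.197 CPM under GSK126, 0.656 CPM under S2101 and 0.0676 CPM untreated. HBA1, an alpha globin with an identical coding copy, had 4.09 CPM in the TSA library, against 0.0657, 0.262 and 0 CPM in the GSK126, S2101 and untreated libraries.

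Tubulin isotypes had 2 of 19 members higher and 0 lower. TUBB2B stood at 85.3 CPM under TSA, against 8.61 CPM under GSK126, 14.5 CPM under S2101 and 8.31 CPM untreated, and TUBB4A, a neuronal isotype, at 128 CPM in the TSA library, against 7.1, 27.4 and 13.9 CPM in the GSK126, S2101 and untreated libraries. Both have close relatives in the family, so their counts are uncertain.

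Cholesterol synthesis genes differed mainly between the untreated library and the other 3. Of 24 members, 3 were 2-fold above the range and 0 below, with a median of -0.08, but the median was 0.78 against the untreated library alone. The summed level was 5124 CPM under TSA, against 6763 CPM under GSK126, 4391 CPM under S2101 and 1853 CPM untreated, so untreated was the lowest of the 4. INSIG1, which holds the sterol sensor in the endoplasmic reticulum, stood at 1241 CPM under TSA, against 409.7 CPM under GSK126, 251 CPM under S2101 and 59.8 CPM untreated. IDI1, of isoprenoid synthesis, had 628 CPM in the TSA library, against 307, 240.3 and 77.3 CPM in the GSK126, S2101 and untreated libraries, and TM7SF2, a sterol reductase, 99.8 CPM under TSA, against 17.9 CPM under GSK126, 28.5 CPM under S2101 and 4.39 CPM untreated.

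Genes with a signal under TSA and next to none otherwise bear on the search for missing proteins. At 1 CPM of the library total, 15157 genes were detected in A549 under TSA, 14082 under GSK126, 14133 under S2101 and 13564 untreated. Genes under 0.1 CPM in all 3 other A549 libraries and at 1 CPM or more under TSA numbered 72 (0.281% of 25647), against 240 (0.936%) in MHCC97H and 80 (0.312%) in HCT116. Without the S2101 library the counts were 199 in A549, 288 in MHCC97H and 104 in HCT116, and against untreated alone 477, 480 and 144. A549 thus had fewer such genes than MHCC97H when all 3 other libraries set the baseline, and nearly as many when the untreated library alone did. In A549, 4 genes made the reverse change.

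Of the 72 genes, 10 were also under 0.1 CPM in all 8 libraries of MHCC97H and HCT116. DGKK, a diacylglycerol kinase on the X chromosome (50365409 to 50470825), had 38 reads under TSA, against 0 under GSK126, 1 under S2101 and 0 untreated, and 0 in the other lines. CR1L, a relative of complement receptor 1 (chromosome 1, 207645133 to 207723703), had 37 reads under TSA, against 0, 1 and 0 under GSK126, under S2101 and untreated. GRIA2, a glutamate receptor subunit, had 29 reads under TSA and CACNG5, a regulator of such receptors, 28, each against 1, 1 and 0 reads under GSK126, under S2101 and untreated. Over a floor of 3 reads in the untreated library these are at least 11.4-fold, 11.1-fold, 8.74-fold and 8.44-fold higher.

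Of the others that were switched on at the highest levels, IL10RA, the interleukin 10 receptor, had 37 reads under TSA, PASD1, a cancer-testis gene, 36, NLRP5, an oocyte protein, 34, and CGA, the common subunit of pituitary glycoprotein hormones, 32. Each had at most 1 read in each of the other 3 A549 libraries. At 2.26 CPM (95% Poisson interval 1.59 to 3.12) IL10RA was close to the detection level, and the interval covers counting error only. In HCT116 IL10RA had 4.92 CPM under TSA and 0.77 CPM untreated and NLRP5 9.07 CPM under TSA and 0.237 CPM untreated.

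More of the 2-fold genes of A549 were shared with MHCC97H than with HCT116, which had fewer such genes. Of the 1644 genes 2-fold higher in A549, 909 were also 2-fold higher in MHCC97H (55.3% of those of A549 and 46.2% of the 1966 of MHCC97H, which are 7.67% of all genes). The overlap with HCT116 was 392 (23.8% of those of A549 and 46.7% of the 840 of HCT116). A set of 261 was higher in all 3 lines and 604 (36.7%) in A549 alone. Of the 1545 lower genes, 876 were lower in MHCC97H (56.7% of those of A549 and 50.4% of the 1738 of MHCC97H), 152 in HCT116 (9.84% and 50.5% of 301), 113 in all 3 lines and 630 (40.8%) in A549 alone. The 3 lines share no library, and "A549 alone" here means past 2-fold in A549 and short of it in the others.

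Of the 1644 genes higher in A549, 6 were 2-fold lower in MHCC97H and 7 in HCT116, where 6.78% and 1.17% of all genes were lower. Of the 1545 genes lower in A549, 18 were 2-fold higher in MHCC97H and 34 in HCT116, where 7.67% and 3.28% of all genes were higher. Among the genes with opposite directions, 8 had at least 20 CPM. PER1, a circadian clock gene, stood in A549 at 98.7 CPM under TSA, against 29.1 CPM under GSK126, 17.6 CPM under S2101 and 13.9 CPM untreated. In HCT116 it had 38.4 CPM under TSA, against 101, 118 and 111 CPM under GSK126, under S2101 and untreated. LONRF2 stood in A549 at 15.3 CPM in the TSA library, against 73.1, 81.3 and 62.4 CPM in the GSK126, S2101 and untreated libraries. In HCT116 it had 93.9 CPM under TSA, against 7.21, 2.37 and 7.70 CPM under GSK126, under S2101 and untreated. CLSTN3, a synaptic adhesion protein, stood in A549 at 4.52 CPM under TSA, against 46.3 CPM under GSK126, 39.0 CPM under S2101 and 35.6 CPM untreated, and in MHCC97H at 86.0 CPM under TSA, against 23.1, 23.1 and 15.7 CPM under GSK126, under S2101 and untreated. Among the others, CACNG8 and PAQR5 were higher in MHCC97H, and FJX1 and MYEOV higher in HCT116, all lower in A549. These genes were chosen for their values, and none passed the test of the difference between lines.

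That test asked whether the TSA change of A549 differed from that of the other lines, as an added term for the A549 TSA library in a fit with line and condition over all 12 libraries. Its spread is that of lines and conditions, not of repeat cultures. By a quasi-likelihood F test (edgeR, p adjusted after Benjamini-Hochberg), 18 of 16875 genes passed at 0.05 (0.107%), 3 with a higher (0.0178%) and 15 with a lower (0.0889%) change in A549, and 2061 had an unadjusted p under 0.05. The same test called 278 genes (1.65%) with MHCC97H as the line tested and 2376 (14.1%) with HCT116. Without the GSK126 or the S2101 libraries 0 genes were called for A549 (1372 and 1268 at an unadjusted p under 0.05), and DESeq2 called 478, all 18 among them.

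MARCHF6, a ubiquitin ligase of the endoplasmic reticulum (chromosome 5, 10353695 to 10440388), was the 1 gene with a higher change that had at least 20 CPM in an A549 library. It stood in A549 at 496 CPM under TSA, against 179.8 CPM under GSK126, 196 CPM under S2101 and 165 CPM untreated. In MHCC97H it had 95.6 CPM under TSA, against 133, 133 and 116 CPM under GSK126, under S2101 and untreated, and in HCT116 154 CPM under TSA, against 220.5, 201 and 181 CPM under GSK126, under S2101 and untreated. It was thus above the range in A549 and below it in both other lines, with a log2 difference in change of 1.86 ± 0.20 (SE; adjusted p = 0.0333, edgeR; 8.4e-21 to 0.293 over the alternatives).

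SCN9A, GJA1 and FBN2 were expressed in A549 without treatment and near-silent in the untreated cells of the other lines, where they stood higher under TSA. SCN9A, a sodium channel of pain neurons (chromosome 2, 166195185 to 166375987), stood in A549 at 29.5 CPM in the TSA library, against 31.7, 37.4 and 36.4 CPM in the GSK126, S2101 and untreated libraries, near its range. In MHCC97H it had 18.4 CPM under TSA, against 0, 0.116 and 0.0687 CPM under GSK126, under S2101 and untreated, and in HCT116 1.98 CPM under TSA, against 0.0687, 0.0551 and 0 CPM under GSK126, under S2101 and untreated. The difference was -7.44 ± 0.88 (SE; adjusted p = 0.0379, edgeR; 1.06e-10 to 0.267 over the alternatives). GJA1, the gap junction protein connexin 43 (chromosome 6, 121435646 to 121449727), stood in A549 at 25.7 CPM under TSA, against 179 CPM under GSK126, 123 CPM under S2101 and 95.04 CPM untreated. In MHCC97H it had 11.6 CPM under TSA, against 0.199, 0.291 and 0.756 CPM under GSK126, under S2101 and untreated, and in HCT116 3.6 CPM under TSA, against 0.0687, 0.11 and 0.178 CPM under GSK126, under S2101 and untreated, so A549 was lower under TSA and the other lines higher. The difference was -7.14 ± 0.72 (SE; adjusted p = 0.0333, edgeR; 1.58e-12 to 0.25 over the alternatives). FBN2, fibrillin 2 of elastic fibres (chromosome 5, 128257909 to 128538245), lay inside its range in A549, at 92.6 CPM in the TSA library, against 52.3, 80.5 and 141 CPM in the GSK126, S2101 and untreated libraries. It had 4.74 CPM under TSA, against 0.137, 0.0551 and 0.296 CPM under GSK126, under S2101 and untreated in HCT116, and the difference was -4.64 ± 0.49 (SE; adjusted p = 0.0333, edgeR; 3.68e-08 to 0.293 over the alternatives).

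PAPPA, NPY4R and MLLT11 were lower under TSA in A549 and weakly expressed in the untreated cells of the other lines. PAPPA, described above, had a difference of -5.65 ± 0.71 (SE; adjusted p = 0.04, edgeR; 3.05e-10 to 0.35 over the alternatives), with 0.995 CPM under TSA and 0.0687 CPM untreated in MHCC97H. NPY4R, a receptor for pancreatic polypeptide with a near-identical neighbouring copy, stood in A549 at 5.13 CPM under TSA, against 68.9 CPM under GSK126, 104 CPM under S2101 and 129 CPM untreated. Its difference was -5.00 ± 0.48 (SE; adjusted p = 0.0333, edgeR; 2.3e-07 to 0.25 over the alternatives). NPY4R had 0.332 CPM under TSA and 0.412 CPM untreated in MHCC97H, and 0.24 CPM under TSA and 0.178 CPM untreated in HCT116. Its change in those lines thus rests on few reads. MLLT11, first known as a fusion partner in leukaemia (chromosome 1, 151060397 to 151069544), stood in A549 at 10.4 CPM in the TSA library, against 46.7, 61.2 and 47.4 CPM in the GSK126, S2101 and untreated libraries. It had 12.1 CPM under TSA and 4.06 CPM untreated in MHCC97H, a difference of -4.22 ± 0.48 (SE; adjusted p = 0.0379, edgeR; 1.13e-11 to 0.298 over the alternatives).

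The other 11 called genes, named here to complete the count, were EYA2, DLL3, GRIN2B, IGSF11, LEPREL1, CHST3, DOCK5, MLPH and NEDD4 with a lower change in A549, and GJB2 and GDA with a higher one. MLPH, which links melanosomes or granules to myosin, was lower in all 3 lines, by margins of -3.66 in A549, -1.78 in MHCC97H and -1.24 in HCT116. NEDD4, a ubiquitin ligase, stood in A549 at 32.9 CPM under TSA, against 193 CPM under GSK126, 214 CPM under S2101 and 266 CPM untreated. GDA, guanine deaminase, was above the range in A549, with 7.88 CPM in the TSA library, against 0.854, 1.97 and 0.811 CPM in the GSK126, S2101 and untreated libraries, and below it in the other lines, with margins of -0.90 in MHCC97H and -0.28 in HCT116. Of all lists, 1 member was called, SCN9A, among 35 voltage-gated channel genes tested. Of all genes tested 0.107% were called, and so few calls cannot set 1 list apart from another.

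**Figure D5:**
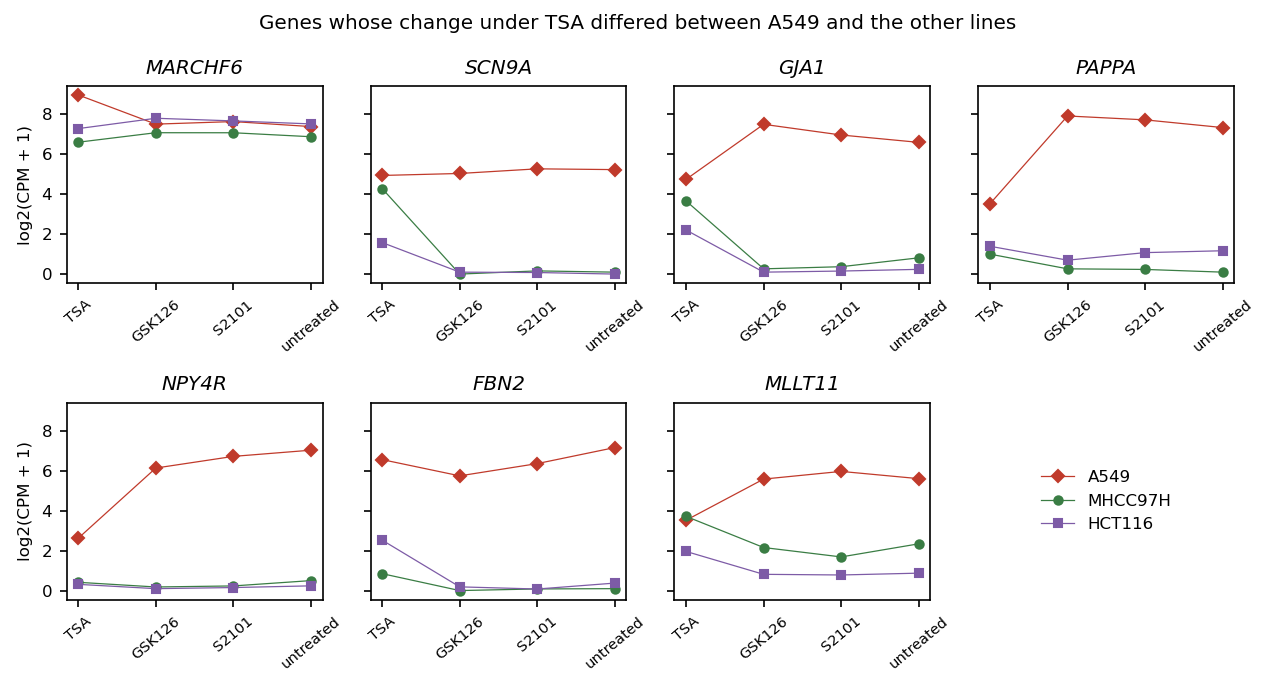
Levels as log2(CPM + 1) of 7 of the 18 genes whose TSA change in A549 differed from the other lines (the 1 higher and the 6 lower of largest difference with at least 20 CPM in an A549 library), with 1 point per library and lines joining the libraries of one cell line. MARCHF6 is highest in A549 under TSA, SCN9A and FBN2 stay near their range in A549, and GJA1, PAPPA, NPY4R and MLLT11 are lower in A549 under TSA than in its other 3 libraries.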

How the data were processed

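Poly(A) RNA was made into 1 library per line and condition, per the labels' protocols. The authors deposited a raw read count per gene and library, per the file headers, and RPKM values computed by the authors, used here only as an alternative, per the file headers. The builds are GRCh38 and hg38, per the submitters' processing notes. Which aligner and counter were used, and how strand was treated, is not given in the sources used here. Antisense, overlapping and multicopy genes are therefore uncertain. Of 25648 genes, 25647 were used; ZZZ3 was left out, entries that name no gene were dropped, and 25 of 26 symbols turned into dates were restored. RefSeq GRCh38.p14 matched 25240 genes (98.4%) and gave coordinates and sequences.

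Counts were scaled by TMM in edgeR 4.0.16 (R 4.3.3), with log2(CPM + 1) for margins. The test between lines was edgeR's quasi-likelihood F test on 16875 genes with a mean of at least 5 reads, with line and condition as terms and 5 residual degrees of freedom, and Benjamini-Hochberg adjustment at 0.05. The SE of a difference was computed from that difference and its F statistic. DESeq2 1.42.0 was an alternative, and the others were RLE scaling, totals alone, pseudocount, filters, thinning, RPKM, and leaving out libraries or lines. Named genes were the 12 of largest margin in each direction with at least 20 CPM, up to 6 called genes in each direction, the 6 switched-on genes of highest level and the 4 highest of A549 alone, the inhibitors' targets, 2 genes on each side of the 2-fold edge, and up to 4 members per list. Some genes that the rule names are not reported here. Further list members and called genes were named after their values were seen. The members and gene lists were chosen with earlier results of these data known. On simulated data the test recovered 42 of 100 genes changed 4-fold and 95 of 100 changed 16-fold, with 6 false calls. The simulation used the same dispersion for all genes and changed only well-expressed genes. It gave the other lines no TSA change of their own, so these figures do not carry over to the real libraries. Nothing says that libraries came from separate cultures, so p-values measure the spread between lines and conditions. With 14805823 counts, 3 reads in the A549 TSA library are 0.203 CPM.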

Additional observations from a re-analysis of the deposited data

Results flagged for a closer look

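The difference between lines in the TSA change was tested for single genes, and 18 of 16875 genes passed for A549 by edgeR's quasi-likelihood F test (Benjamini-Hochberg). Among the 7 described above, MARCHF6 had a change 1.86 higher in A549 on the log2 scale than in the other lines. The change was lower in A549 for SCN9A by -7.44, GJA1 by -7.14, PAPPA by -5.65, NPY4R by -5.00, FBN2 by -4.64 and MLLT11 by -4.22. Each of the 7 calls was lost without the GSK126 or without the S2101 libraries, with adjusted p of 0.186 to 0.35 in edgeR, while the differences stayed near the same size. Without the GSK126 libraries the difference was 1.81 for MARCHF6, -7.38 for SCN9A, -6.62 for GJA1, -5.40 for PAPPA, -4.94 for NPY4R, -4.69 for FBN2 and -4.32 for MLLT11. Without the S2101 libraries it was 1.91, -7.93, -7.02, -5.70, -4.85, -4.44 and -3.92 in the same order of genes.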

How the results depend on the processing

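Of the A549 genes 2-fold beyond the range, 1644 were higher and 1545 lower, and leaving out each other A549 library in turn gave 1734 to 1969 higher and 1653 to 1843 lower. At 4-fold the counts were 418 and 357, against the untreated library alone 2854 and 2547 (chosen after seeing the data), and from the deposited RPKM 947 lower. Genes switched on numbered 77 to 199 when each other A549 library was left out, and 477 against the untreated library alone. The 18 genes whose TSA change in A549 differed from the other lines became 43 with no filter on low counts, 2190 without the MHCC97H line, which leaves 2 residual degrees of freedom, 498 without the HCT116 line, 478 with DESeq2, and 0 without the GSK126 or without the S2101 libraries. With MHCC97H or HCT116 tested in place of A549 the counts were 278 and 2376. The cause was not tested. The direction held for all 24 largest margins under RLE scaling and under library totals alone. Leaving out another A549 library can only keep or widen a margin, so that setting could not change its direction. Pseudocount, thinning and RPKM were not run on these margins. The direction of all 7 named differences between lines held under the alternatives run. Pairing by replicate was not possible because each line and condition has 1 library, so the groups share fewer than 2 replicate numbers. The 4 conditions do pair by cell line, which is already a term in the test. Depth limits genes near 1 CPM, where 3 reads are 0.203 CPM in the A549 TSA library.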
